A study of Mus musculus with 4 samples.

Results

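The complement genes C2, C3, C4b, Cfb, Cfd, Cfi, Hc, C3ar1 and C5ar1 were examined in lung cells of mice given phosphate-buffered saline (PBS) or bleomycin (BLM). Members were the genes of this list that had a transcript cluster annotated to exactly 1 gene symbol, with the cluster of highest mean kept for each gene. Of the 9 listed genes, 7 met this rule, among 30142 genes so named on the array. C3 and Cfd were not analysed here. Bleomycin is a DNA-damaging drug that causes lung injury followed by fibrosis. Both groups were C57BL/6 mice, and PBS or BLM had been administered into the trachea 10 days earlier. RNA came from the CD45-negative fraction of the lung, that is, the cells left when those bearing the common leukocyte surface protein are set aside. It was measured on 4 Affymetrix arrays, 2 per group. The labels give neither age nor sex, nor whether arrays of 1 group hold different mice, so the p-values reflect array-to-array spread that may be technical.

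Complement is a cascade of plasma proteins that marks particles and damaged cells for removal. The classical and lectin routes cleave C4 and C2 to form a C3-cleaving enzyme, the alternative route forms one with factor B, and factor I shuts both down by cutting the C3 and C4 fragments. Cleavage of C5, encoded by Hc in mice, starts the membrane attack complex, and the small fragments C3a and C5a signal through the receptors C3ar1 and C5ar1 on myeloid and other cells. The liver supplies most circulating complement, but lung epithelium, fibroblasts and macrophages also transcribe its genes.

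Values are log2 expression per transcript cluster as the authors deposited them, and a difference is the mean of the BLM arrays minus the mean of the PBS arrays, n = 2 arrays per group, with its standard error (SE). Rose and fell are used only where limma's adjusted p, computed over all 30142 genes, was under 0.05. A level is compared within 1 gene only, since different clusters do not share a scale, and is set against the median of all genes, 6.03, only to mark dim values. Between 571 and 617 clusters per array exceeded 16, the most that a 16-bit scan can give in log2, which points to a further scaling that is not described in the labels. Folds, among them those of bright genes such as Hc, are therefore folds on the scale as deposited.

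Epithelial, endothelial and fibroblast markers were present on all arrays, with Sftpc at 19.56 to 19.87, Cldn5 at 16.60 to 16.98 and Dcn at 15.37 to 15.79. Lung with its leukocytes left in would hold them too, so they do not check the removal of CD45-bearing cells. Ptprc, the CD45 gene, stood at 6.30 and 6.21 after PBS and 7.19 and 7.20 after BLM, above the median of all genes, 6.03. Arrays of a group differed on average by 0.157 (PBS) and 0.134 (BLM) log2 units per gene, and arrays of different groups by 0.329 to 0.342. Xist, transcribed from the inactive X chromosome of females, was at 15.86 and 15.61 after PBS, against 5.60 and 5.43 after BLM, and the Y-linked Uty was at 6.19 and 6.84 against 9.09 and 8.83. Treatment and this sex-linked split fall on the same arrays, so for every gene their contributions cannot be told apart.

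Among the 7 measured genes 6 rose and 1 fell. The genes for C4 and factor B and the C3a receptor gene rose about 3-fold, those for C2, factor I and the C5a receptor rose less than 2-fold, and Hc, the C5 gene, fell 3.60-fold. In bulk RNA such as this, fewer cells of a type and less RNA per cell cannot be told apart. Over all genes, 25.3% passed the same threshold, of which those higher after BLM made up 15.2% of all genes and those lower 10.1%. The median difference was 0.88 over the 7 genes and 0.05 over all genes. In all 7 the BLM and PBS values did not overlap, as in 63.3% of all genes (38% with BLM above PBS and 25.3% below). At least 2-fold differences were found for 4 of the 7, Cfb, C3ar1, C4b and Hc, against 5.14% of all genes (2.81% higher and 2.33% lower). The split of all calls was 4582 higher and 3047 lower, but 3826 higher and 3890 lower after cyclic loess scaling, under which the 7 genes kept their directions and calls.

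**Figure D1:**
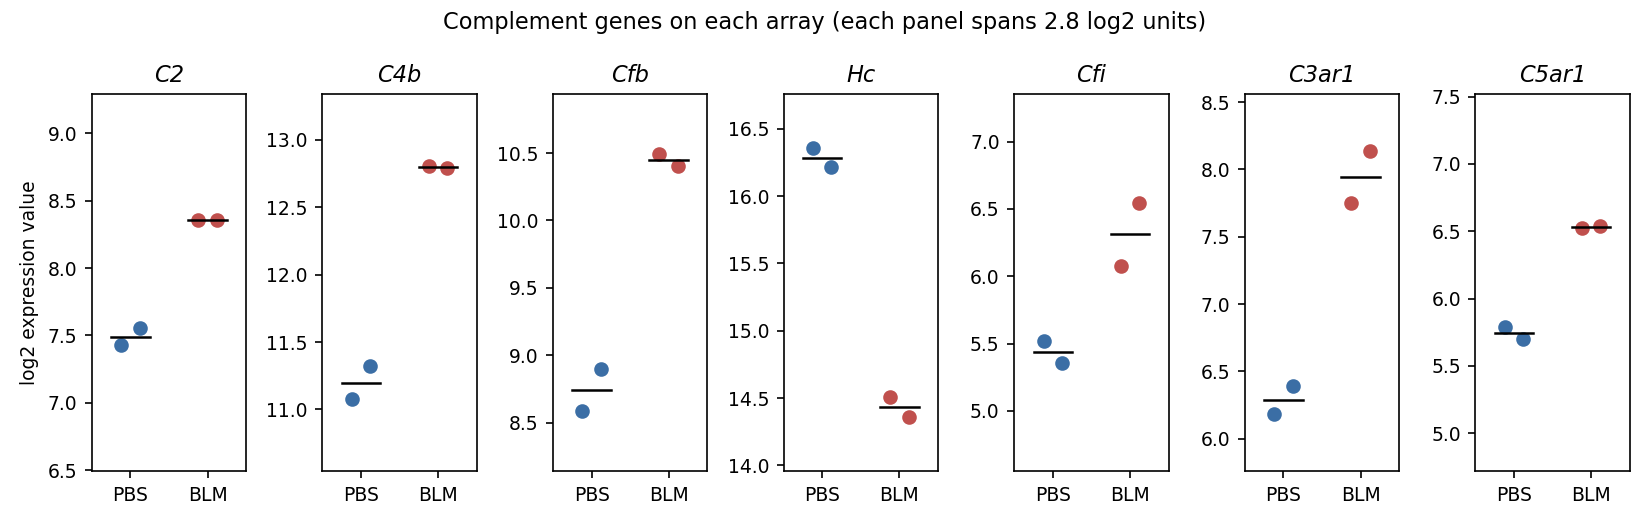
Log2 expression value (vertical axis) of each measured complement gene on the 2 PBS and the 2 BLM arrays. Points are arrays, lines are group means, and each panel spans the same number of log2 units around its own centre. Both BLM points lie above both PBS points in 6 panels and below them for Hc, which went from 16.35 and 16.21 to 14.51 and 14.36.

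For 3 of the genes whose results are described next, RefSeq's table (GRCm38.p6) gives the stretch from 250 bases before to 50 bases after the start of transcription. They are the C3a receptor, the C5a receptor and C5, shown because only these measured members were in that table. Each is written 5′ to 3′ on the gene's own strand, and capitals mark matches, on either strand, to any of 6 motifs searched. For the myeloid factor PU.1 the letters were GAGGAA. For the stress-responsive factor AP-1 they were TGANTCA. The C/EBP factors were searched for as TTGCNNAA. For the cytokine-activated STAT factors the half-sites TTC and GAA were taken with any 3 bases between. The TATA box was searched for as TATAAA, and NF-kB by its usual consensus.
C3ar1, chr6:122856108-122856407, minus strand: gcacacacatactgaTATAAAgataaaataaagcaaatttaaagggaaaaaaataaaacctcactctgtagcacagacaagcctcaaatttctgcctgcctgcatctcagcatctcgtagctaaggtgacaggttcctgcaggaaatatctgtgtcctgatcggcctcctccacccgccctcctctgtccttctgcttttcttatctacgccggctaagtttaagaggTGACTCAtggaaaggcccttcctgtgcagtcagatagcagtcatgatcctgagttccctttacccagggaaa
C5ar1, chr7:16259289-16259588, minus strand: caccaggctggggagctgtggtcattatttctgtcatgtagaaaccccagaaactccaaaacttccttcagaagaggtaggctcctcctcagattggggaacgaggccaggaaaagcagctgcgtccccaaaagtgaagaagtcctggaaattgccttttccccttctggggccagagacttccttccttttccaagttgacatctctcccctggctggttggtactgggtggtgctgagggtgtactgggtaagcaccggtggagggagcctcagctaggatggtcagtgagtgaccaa
Hc, chr2:35061363-35061662, minus strand: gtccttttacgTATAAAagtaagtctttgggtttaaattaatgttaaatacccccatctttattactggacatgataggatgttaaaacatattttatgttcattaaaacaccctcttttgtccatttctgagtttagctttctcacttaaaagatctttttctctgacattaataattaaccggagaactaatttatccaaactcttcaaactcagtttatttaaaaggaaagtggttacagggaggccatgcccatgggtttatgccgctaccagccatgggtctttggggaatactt

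The C3ar1 stretch held an AP-1 match beginning 22 bases before the start, letters that 7.81% of 32851 promoters of the same length held. TATAAA occurred far from the start in both C3ar1 and Hc, beginning 235 and 239 bases before it, and in 13.6% of all promoters. None of the matches overlapped, and the C5ar1 stretch held none of the 6 motifs. The shares of promoters for the motifs found in none of the 3 stretches were 28.3% for PU.1, 10.8% for C/EBP, 8.3% for STAT and 4.51% for NF-kB. GC content was 34.7% in the Hc stretch, 46% in that of C3ar1 and 53.7% in that of C5ar1. A match describes the letters and is not evidence that a factor binds there.

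C4b encodes C4, the thioester protein that the classical and lectin routes deposit on surfaces. It stood at 11.07 and 11.32 after PBS, against 12.81 and 12.79 after BLM. Both BLM arrays were higher, and they lay 1.47 above the nearer PBS array. C4b rose by 1.60 (SE 0.11, 95% interval 1.33 to 1.88, adjusted p = 0.000853), or 3.04-fold. Its neighbour C4a, a close copy encoding sex-limited protein, stood at 8.76 and 8.88 against 9.97 and 9.99 and rose by 1.16 (SE 0.09, adjusted p = 0.00111). The sequences of these copies are so alike that probes may read either, so how the rise divides between them is uncertain. For both copies, treatment and the sex-linked split given above fall on the same arrays and cannot be told apart.

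C2 encodes the serine protease that joins C4b protein in the classical convertase. It was at 7.43 and 7.56 after PBS, against 8.36 on both BLM arrays. The BLM pair differed by less than any PBS pair of the 7 genes, and both lay above the PBS arrays. C2 rose by 0.87 (SE 0.09, 95% interval 0.64 to 1.09, adjusted p = 0.00244), or 1.82-fold. A second cluster annotated to C2 stood at 3.89 and 3.98 against 3.91 and 3.84, a difference of -0.06 at a level well under 6.03, the median of all genes. With the mean of both clusters in place of the brighter one the difference was 0.40 (adjusted p = 0.0239).

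Cfb encodes factor B, the counterpart of C2 in the alternative route, from a gene directly beside it on chromosome 17. Its values were 8.59 and 8.90 after PBS, against 10.49 and 10.41 after BLM. The groups were separated by 1.51, several times the 0.31 between the PBS arrays. It rose by 1.71 (SE 0.13, 95% interval 1.39 to 2.03, adjusted p = 0.00107), or 3.27-fold, the highest rise of the 7 genes and the 232nd highest difference among all genes. The neighbours C2 and Cfb thus differed in the size of their rise, with intervals that did not overlap, although a test between the genes was not made.

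Hc, the C5 gene, went the other way. It stood at 16.35 and 16.21 after PBS, against 14.51 and 14.36 after BLM. The lowest PBS value lay 1.70 above the highest BLM value, while arrays of a group differed by 0.14 and 0.15. Hc fell by 1.85 on the log2 scale (SE 0.10, 95% interval -2.10 to -1.59, adjusted p = 0.00050), the 138th deepest difference among all genes. It remained far above 6.03, the median level of all genes, on the BLM arrays.

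Cfi encodes factor I, the protease that inactivates the C3 and C4 fragments with the help of cofactors. It was at 5.52 and 5.36 after PBS, against 6.08 and 6.55 after BLM. The PBS values lay below the median of all genes and the BLM values a little above it, and the BLM arrays differed by 0.47, the widest pair among the 7 genes. Cfi rose by 0.88 (SE 0.17, 95% interval 0.45 to 1.30, adjusted p = 0.0181), or 1.83-fold. Without PBS replicate 2 the difference was 0.80 and no longer passed (adjusted p = 0.0734), and over the alternatives tried adjusted p ran from 0.0113 to that value. At such dim levels differences are compressed toward 0, so its size is not exact.

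C3ar1 encodes the C3a receptor, a G protein-coupled receptor. It stood at 6.18 and 6.40 after PBS, against 7.75 and 8.14 after BLM. The BLM arrays lay at least 1.36 above the PBS arrays, but differed by 0.38 between themselves. C3ar1 rose by 1.66 (SE 0.16, 95% interval 1.26 to 2.05, adjusted p = 0.00197), or 3.15-fold. C5ar1, the C5a receptor gene of the same receptor family, stood at 5.79 and 5.70 against 6.52 and 6.54. Its groups were 0.73 apart, with PBS values below the median of all genes, so the size of its difference is not exact either. It rose by 0.79 (SE 0.08, 95% interval 0.58 to 0.995, adjusted p = 0.00274), or 1.72-fold.

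**Figure D2:**
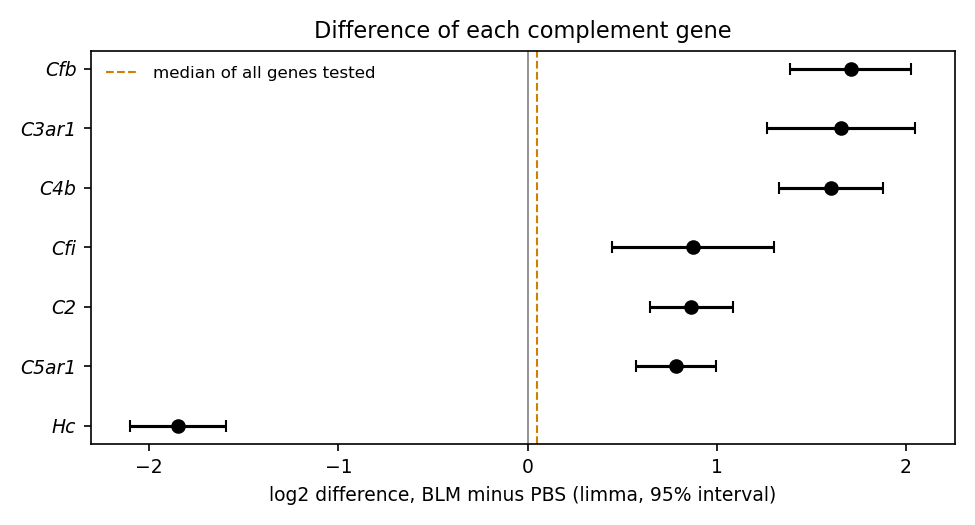
Log2 difference, BLM minus PBS (horizontal axis), of each measured complement gene with its 95% interval from limma. The dashed line is the median of all genes, 0.05. Cfb, C3ar1 and C4b lie at 1.71, 1.66 and 1.60, Cfi, C2 and C5ar1 at 0.88, 0.87 and 0.79, and Hc at -1.85.

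Ordered by difference, the genes formed an upper set of Cfb, C3ar1 and C4b, a lower set of Cfi, C2 and C5ar1, and Hc. Neighbours within the upper set were 0.06 or less apart, and within the lower set 0.08 or less, which is within 1 SE of any of them. Between Cfi and C4b the step was 0.73, and from Hc to C5ar1 it was 2.63.

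The genes whose values most resembled those of Cfb over the 4 arrays, by Euclidean distance after each gene was centred on its own mean, were Pla1a at 0.064, Cers6 at 0.067 and Bdkrb1 at 0.071, among 11483 genes. They encode a phospholipase, a ceramide synthase and a bradykinin receptor. For Hc they were Tspyl4 at 0.034, Selenbp1 at 0.047 and Ppp1r14c at 0.062. With 4 arrays in 2 groups such closeness means a difference of like size, from -1.85 to -1.87 for those beside Hc and from 1.67 to 1.74 for those beside Cfb.

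Of 47 other complement genes on lists by role, 42 were measured, of which 18 rose, 4 fell and 20 did not pass, with a median difference of 0.22 against 0.05 over all genes. Over all genes 25.3% passed, 15.2% higher and 10.1% lower after BLM. The counts of the role and marker lists below are to be read beside these shares. Without BLM replicate 1 the number passing was 14 in place of 22.

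Among 13 measured genes that start the cascade, 6 rose, 1 fell and 6 did not pass. The 3 chains of C1q, the antibody-binding recognition protein made mainly by macrophages, all rose. C1qb went from 5.85 and 5.98 to 8.43 and 8.99 and rose by 2.79 (SE 0.19), C1qa rose by 1.74 (SE 0.15) and C1qc by 1.12 (SE 0.10). Mbl1, a mannose-binding lectin gene, fell by 1.08 (SE 0.15) from 7.22 and 7.20 to 6.34 and 5.94. Masp1, named after its values were seen, rose by 0.93 (SE 0.10, adjusted p = 0.00323), from dim PBS values of 5.83 and 5.63 to 6.70 and 6.62. The C1r protease genes C1ra and C1rb, named after their values were seen, rose by 0.53 and 0.48, but they are near-identical copies whose shares are uncertain, and without BLM replicate 1 neither passed (adjusted p = 0.0592 and 0.0698), nor did C1rb without BLM replicate 2 (adjusted p = 0.0673).

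Cfp encodes properdin, which steadies the alternative convertase that factor B forms. It rose by 1.31 (SE 0.10, adjusted p = 0.00113), from 7.02 and 7.17 to 8.34 and 8.48. Cfp lies on the X chromosome, on arrays whose groups also differ in sex-linked transcripts, as given above.

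Of the 6 genes of the terminal pathway, which C5 cleavage sets off, all were measured and 1 passed, a share near the 25.3% of all genes. By limma 0 rose at an adjusted p under 0.05, and 0 of the 5 that did not pass had an unadjusted p under 0.05. C8a, C8b, C8g and C9 lay below 6.03, the median of all genes, on each of the 4 arrays, where differences are compressed. C6, which joins C5b first, fell by 0.31 (11.75 and 11.85 against 11.48 and 11.50, adjusted p = 0.0488). It did not pass when any 1 array was left out (without BLM replicate 1, adjusted p = 0.208), and after cyclic loess it was at -0.49 (adjusted p = 0.0112).

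Among 7 measured soluble regulators, 3 rose, 1 fell and 3 did not pass. Clu, encoding clusterin, which binds terminal complexes, rose by 1.87 (SE 0.08), from 10.95 and 11.03 to 12.88 and 12.86. Serping1, encoding the C1 inhibitor, rose by 1.47 (SE 0.16), from 11.29 and 11.67 to 12.83 and 13.08. Cpn1, encoding a subunit of the carboxypeptidase that trims C3a and C5a, fell by 1.09 (SE 0.09), from 6.35 and 6.36 to 5.34 and 5.19. Its BLM values lay below the median of all genes, 6.03, so the size of the fall is not exact. C4bp, encoding a cofactor that helps factor I cut C4b protein, rose by 0.35 at a dim level and did not pass when any 1 array was left out (without BLM replicate 1, adjusted p = 0.166).

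Of 8 membrane regulators, all measured, 4 rose, 1 fell and 3 did not pass. Cd59a, whose protein blocks the membrane attack complex, rose by 1.48 (SE 0.08), from 9.29 and 9.26 to 10.72 and 10.78, and its close copy Cd59b by 0.53 (SE 0.09). Csmd1 rose by 1.27 (SE 0.09) from dim PBS values of 5.14 and 4.98. Cr1l, encoding the rodent regulator Crry, rose by 0.40 from 12.56 on both PBS arrays to 13.00 and 12.92, but differed by 0.21 after cyclic loess (adjusted p = 0.102). The decay-accelerating factor copy Cd55b, named after its value was seen, fell by 0.38. Cd59b did not pass without BLM replicate 1 or 2 (adjusted p = 0.0502 and 0.0682), and neither Cr1l nor Cd55b passed when any 1 array was left out (adjusted p = 0.129 for Cr1l without BLM replicate 1 and 0.167 for Cd55b without BLM replicate 2, the highest for each).

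Of 6 other receptors, 3 rose and 3 did not pass. All 3 that rose encode chains of the leukocyte integrins that bind C3 fragments. Itgax rose by 2.47 (SE 0.11), from 5.87 and 5.83 to 8.20 and 8.45, Itgb2 by 1.75 (SE 0.12), and Itgam by 0.37, which did not pass when any 1 array was left out (without BLM replicate 2, adjusted p = 0.164). C5ar2, the second C5a receptor, was named after its values were seen. It stood at 7.52 and 7.48 against 7.30 and 7.32, a difference of -0.19 (adjusted p = 0.155) where C5ar1 rose by 0.79.

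**Figure D3:**
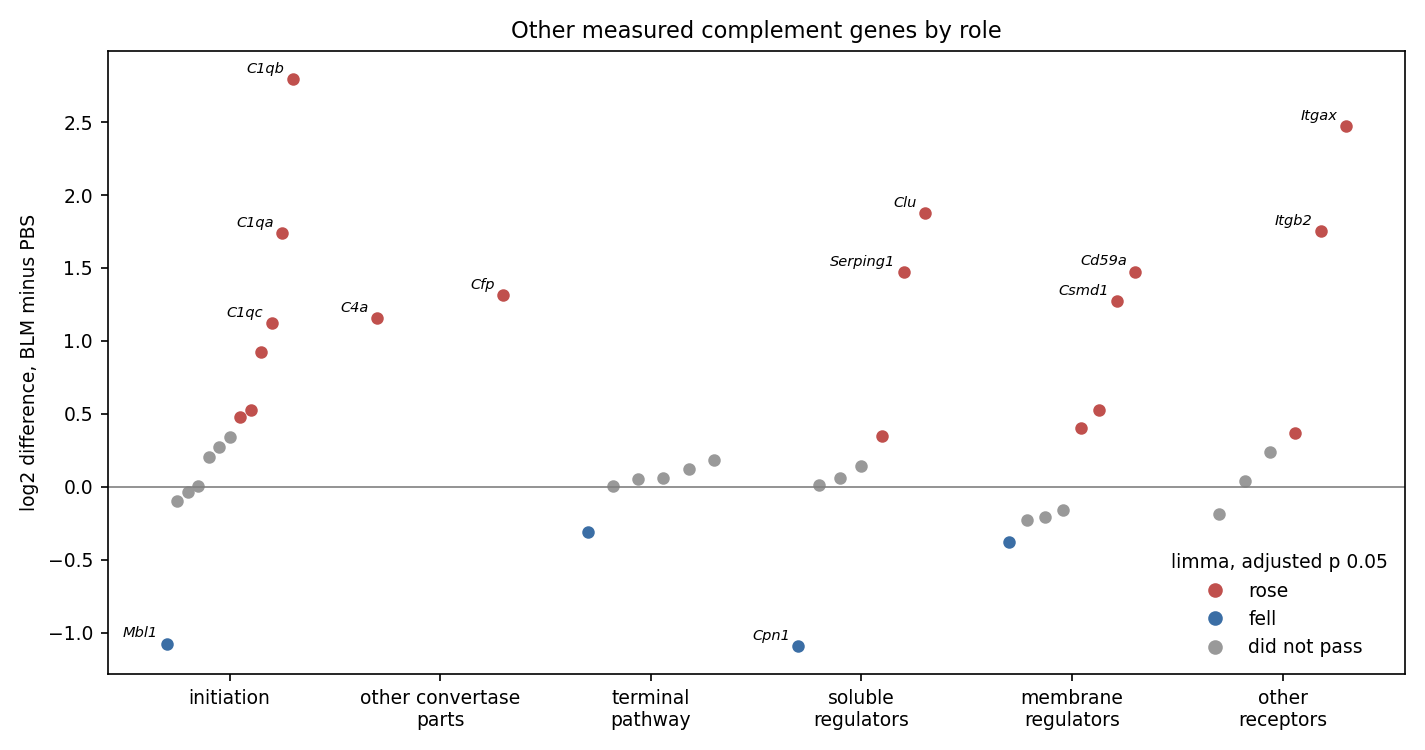
Log2 difference, BLM minus PBS (vertical axis), of the 42 other measured complement genes, grouped by role. Each point is a gene, coloured by limma's call, and genes past 1 log2 unit are named. C1qb at 2.79 and Itgax at 2.47 stand highest, Cpn1 and Mbl1 lowest at -1.09 and -1.08, and the terminal pathway lies between -0.31 and 0.18.

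Markers of cell types moved on the same arrays. Ptprc, the gene of CD45, by which cells were set aside, was at 6.30 and 6.21 after PBS, against 7.19 and 7.20 after BLM, and rose by 0.94 (SE 0.08). Of 15 macrophage and monocyte markers 11 rose and 2 fell (median 1.05), beside the rises of C3ar1, C5ar1, C1q, Itgax and Itgb2. Ctss and Clec7a rose by 5.49 and 5.43, and Lyz2, also abundant in alveolar type 2 cells, fell by 1.14. Ly6c2 rose by 1.05, from values already high after PBS, 14.35 and 14.53. Which cells of this CD45-negative fraction gave the Ly6c2 signal was not tested. Named after their values were seen, Mertk fell by 0.32 (adjusted p = 0.0467), and Marco at 0.04 and Siglecf at 0.17 did not pass. The log2 of this list's summed level, a sum that bright clusters such as that of Lyz2 weigh on most and that is given only to compare arrays, was 19.33 to 19.47 on the PBS and 18.44 to 18.50 on the BLM arrays. Of 10 neutrophil markers, 3 rose, led by Mmp8 at 2.52, and Ltf alone fell by 1.11 (median 0.29, summed level 12.85 to 13.06 against 11.97 to 12.09). That sum is nearly all Ltf, by far the brightest of the list, at 12.99 and 12.76 after PBS and 11.69 and 11.85 after BLM. It therefore says little of the other neutrophil markers. Retnlg rose by 0.72. Of 7 measured lymphocyte markers 1 rose, Cd3d by 0.47, Cd79a stood at -0.15 (adjusted p = 0.295), and none of the 7 had a mean level above the median of all genes (summed level 7.86 on both PBS arrays and 7.93 to 7.98 on the BLM arrays). The part of leukocytes in these differences was not tested.

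Beside the fall of Hc, which lung type 2 cells express, 9 of 10 alveolar type 2 markers fell (median -0.93), Etv5 standing at -1.78, Lamp3 at -1.59 and Sftpa1 at -0.98, while Sftpc differed by 0.12. The log2 of their summed level was 21.07 to 21.12 on the PBS and 20.63 to 20.69 on the BLM arrays. Of 6 club and secretory markers 5 fell (median -1.30), Scgb1a1 standing at -1.68, Muc5b at -1.47, Cyp2f2 at -1.39 and Bpifa1 at -1.20 (summed level 18.75 to 18.86 against 17.49 to 17.55). Scgb3a1, named after its values were seen, went the other way at 0.53 but did not pass (adjusted p = 0.0547). The part of epithelial markers in the fall of Hc was not tested.

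Beside the rises of C4b, Cfb, Serping1 and Clu, 7 of 9 measured fibroblast markers rose (median 1.53), Col1a1 by 4.28, Col3a1 by 3.60 and Dpt by 1.19, with Dcn at 0.28 (adjusted p = 0.124; summed level 16.72 to 16.80 against 17.87 to 17.94). Of 6 mesothelial markers 5 rose (median 0.97), Upk1b by 2.31, Msln by 1.28 and Krt19 by 0.34 (summed level 13.04 to 13.17 against 13.98 to 14.01). Krt19, at 12.78 and 12.83 after PBS, weighs most on the PBS sum. Wt1, named after its values were seen, differed by 0.03 (adjusted p = 0.877) at a level below the median of all genes. Of 8 endothelial markers 4 rose and 1 fell (median 0.32), Emcn rising by 2.63, Erg by 1.003 and Cdh5 by 0.85, with Cldn5 at 0.21 (adjusted p = 0.216; summed level 16.96 to 17.12 against 17.20 to 17.36). The endothelial marker that fell was Vwf, by 0.86 (adjusted p = 0.00241), named after its value was seen. Of 6 adipocyte markers 2 rose and 1 fell (median 0.25), Retn rising by 0.65, Adipoq by 0.63 and Cidea standing at -0.60, all near or below the median of all genes (summed level 8.10 to 8.18 against 8.31 to 8.33). Their part in the complement differences was not tested.

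**Figure D4:**
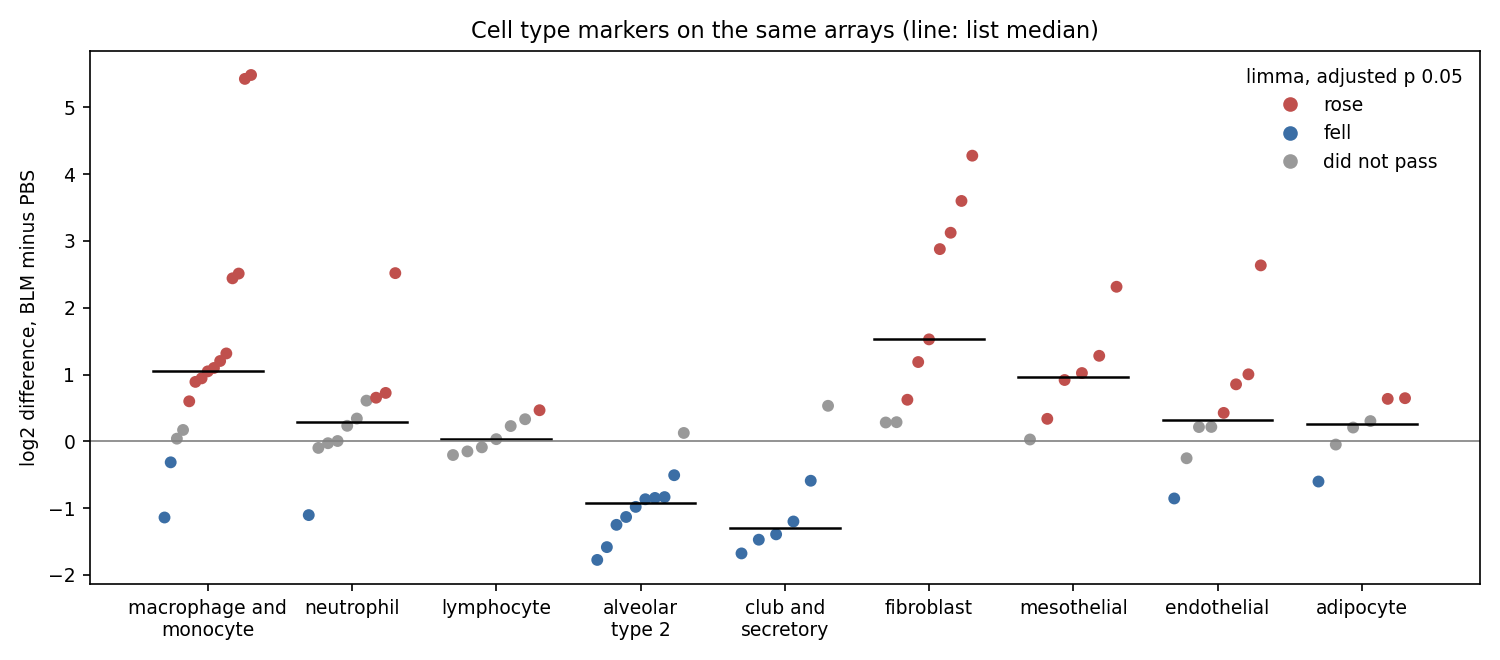
Log2 difference, BLM minus PBS (vertical axis), of the marker genes of each cell type list. Points are genes coloured by limma's call and lines are list medians, from 1.53 for fibroblasts and 1.05 for macrophages and monocytes to -0.93 for alveolar type 2 and -1.30 for club cells.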

How the data were processed

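RNA from the CD45-negative lung fraction was hybridised to Affymetrix arrays after biotin labelling, per the labels' protocols. The authors deposited log2 values, 1 per transcript cluster and array. The submitters' processing notes name RMA and Affymetrix Expression Console as their tools. RMA subtracts background, equalises the distributions of arrays and combines the probes of a cluster. Tool versions and the array build remain not given in the sources used here. No detection calls were used, dim genes stayed in the test, and the number of arrays limits the precision.

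Of 65956 transcript clusters, 30604 carried 1 symbol (827 updated through Entrez identifiers), 2146 several and 33206 none here. Clusters without 1 symbol were left out. For 355 genes with several clusters the one with the highest mean was kept, and the test over 30142 genes was two-sided, by limma 3.58.1's lmFit and eBayes in R 4.3.3, with Benjamini-Hochberg adjustment over all of them. The fit had 2 residual and 3.33 prior degrees of freedom. Promoter letters were searched for motifs in RefSeq's table, which matched 3 of the 7 genes.

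The genes, lists, tests and alternatives were chosen with earlier results of these data known. All 7 genes are named whatever their result. From each role list every gene of a list of 3 or fewer, otherwise up to 4 with the largest differences past the threshold, are named, and C4a always. From marker lists the 2 of highest mean value and the 2 with the largest differences past the threshold are named, and Ptprc always. For the highest and the lowest difference, the 3 most similar genes above the median level are named, skipping unnamed transcripts. Alternatives were a replicate block, 1 array fewer, genes above the median level only, averaged clusters, a trended robust prior, median centring and cyclic loess.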

Additional observations from a re-analysis of the deposited data

How the results depend on the processing

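Of 69 values of the 7 complement genes under 10 alternatives, 68 kept their direction and their side of the threshold. The exception was Cfi without PBS replicate 2, at 0.80 (adjusted p = 0.0734), and Cfi was not tested under the filter on dim genes. The cause was not tested. A kept direction says little, here and for the 22 other complement genes that passed. The replicate block, the filter and the trended prior leave the difference as it was, as do averaged clusters for genes without a second cluster. Leaving out 1 array cannot reverse a difference whose groups do not overlap. Only median centring, cyclic loess and, for C2, averaged clusters could change a direction. The number of the 7 past the threshold was 6 or 7 when each array was left out. With a replicate block all 7 passed, as did 18 of the other complement genes (22 without it) and 6742 of all genes (7629 without it). Replicate numbers do not pair the arrays by any label. The deviations of same-numbered arrays had a correlation of only 0.014 across genes, which are not independent replicates. Leaving out each array gave 4003 to 5956 of all genes, with 4003 without BLM replicate 1 and 4379 without BLM replicate 2, and 14 to 17 of the other complement genes, with 14 without BLM replicate 1. Such fits have fewer arrays and 1 residual degree of freedom. Of the 22 other complement genes that passed, 14 kept their call in each alternative that tested them, 8 lost it in at least 1, and 0 changed direction. Cd55, named after its values were seen, passed only after cyclic loess, at -0.38 (adjusted p = 0.0229, against 0.154). Dim signal limits Cfi and C5ar1, whose PBS values lay below the median of all genes.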
